A study of Mus musculus with 33 samples.

Results

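The change between day 14 and day 28 in the effect of Trps1 loss was measured in 8 RNA-seq libraries of primary mouse mammary organoids, out of 33 libraries in the series. The 8 are every library of Cdh1F/F;Trps1+/+ and Cdh1F/F;Trps1F/F organoids, with 2 libraries in each of 4 groups: Cdh1F/F;Trps1+/+ at day 14, Cdh1F/F;Trps1F/F at day 14, Cdh1F/F;Trps1+/+ at day 28 and Cdh1F/F;Trps1F/F at day 28. Organoids of all 4 groups carried floxed Cdh1 on both alleles, controls included, all were transduced with AdCre, an adenovirus that delivers Cre recombinase, and all were harvested after 14 or 28 days in Matrigel, a gel of basement membrane proteins. The comparison therefore sets Trps1 loss against an unaltered Trps1 gene in cells in which Cdh1 was also a target of Cre, and not against untouched cells. The rest of the series holds Cdh1+/F;Trps1F/F organoids, the mammary cell line HC11 and mouse mammary tumours. The quantity followed here is the interaction, the Trps1F/F minus Trps1+/+ difference at day 28 less the same difference at day 14, on the scale of log2(normalized count + 1). A positive value says that the Trps1F/F libraries stood higher relative to Trps1+/+ at day 28 than they did at day 14. A negative value says the opposite.

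TRPS1 is a zinc-finger protein with a single GATA-type finger that binds GATA sequences and is known mainly as a transcriptional repressor, working with histone deacetylase complexes. It is abundant in mammary epithelium. Cdh1 encodes E-cadherin, the adhesion molecule of epithelial adherens junctions, and its loss is the defining lesion of lobular breast cancer. Mammary epithelium holds an inner luminal layer, which makes milk proteins in lactation, and an outer basal or myoepithelial layer that rests on a basement membrane.

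The 8 libraries held between 16929022 and 30341900 reads recovered from the deposited values. Epithelial markers were present in all 8, with summed luminal markers at 0.546% to 0.948% of normalized counts and summed basal markers at 0.742% to 1.01%. Trps1 itself stood at 13.59 and 13.51 in Trps1+/+ and at 11.39 and 11.27 in Trps1F/F at day 14, and at 13.96 and 13.62 in Trps1+/+ and 11.23 and 11.05 in Trps1F/F at day 28. Every Trps1F/F library was below every Trps1+/+ library on both days. The difference was 4.67-fold at day 14 and 6.26-fold at day 28, and the interaction of Trps1 was -0.42 (SE 0.258, n = 2 libraries per group, limma adjusted p = 0.273), so a difference in its depletion between the days was not detected. Cdh1 had an interaction of -0.10 (SE 0.123, adjusted p = 0.589). Gata3, the GATA factor of luminal cells, had an interaction of -0.17 (SE 0.151, adjusted p = 0.463). The Trps1+/+ columns carry no distinct replicate numbers, so the libraries of those groups are called the first and the second in the order of the table. The labels do not say whether 2 libraries of a group came from separate animals or cultures, so the p-values measure the spread between these libraries, which may be technical.

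Between day 14 and day 28 the effect of Trps1 loss changed for a large number of genes. Of 15860 genes tested, 2845 were called at an adjusted p under 0.05, which is 17.9% of the tested genes. The interaction was positive for 1304 of them, or 8.22% of tested genes, and negative for 1541, or 9.72%. It reached 2-fold in 386 of the genes called higher and in 350 of those called lower. The median over all tested genes was -0.01. All 2845 called genes had library-to-library differences at day 28 that did not overlap those at day 14, against 47.6% of all tested genes. The authors' deposited tables of the same genotypes at each day gave the same sign of the day 28 minus day 14 difference for all 2845 called genes, from the same libraries. Both counts rest on the values that made the calls, so neither is separate support for them.

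The called genes reached their interaction in different ways. Of the 1304 called higher, 708 passed for genotype at day 28 only, 278 at day 14 only, 112 at both days with opposite signs, 117 at both days with the same sign and a larger size at day 28, 42 at both days with a smaller size at day 28, and 47 at neither day. Of the 1541 called lower, the same counts were 627, 425, 137, 198, 102 and 52. How many of all tested genes passed for genotype on each day is not given here. These counts thus describe the called genes and do not show that any route was favoured. Seen along time, the genes called higher had a median day 28 minus day 14 difference of -0.31 in Trps1+/+ and 0.33 in Trps1F/F. The genes called lower had medians of 0.30 and -0.40. The interaction equals the Trps1F/F time difference less the Trps1+/+ one. The order of these medians is therefore fixed by the calls and is not a separate result. Both directions thus held genes in which the Trps1+/+ libraries moved and genes in which the Trps1F/F libraries moved. The time difference passed in Trps1F/F alone for 629 of the higher and 730 of the lower calls. In Trps1+/+ alone it passed for 401 and 452. The matching shares of all tested genes are not given, so the time counts also have no background to be read against.

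**Figure D1:**
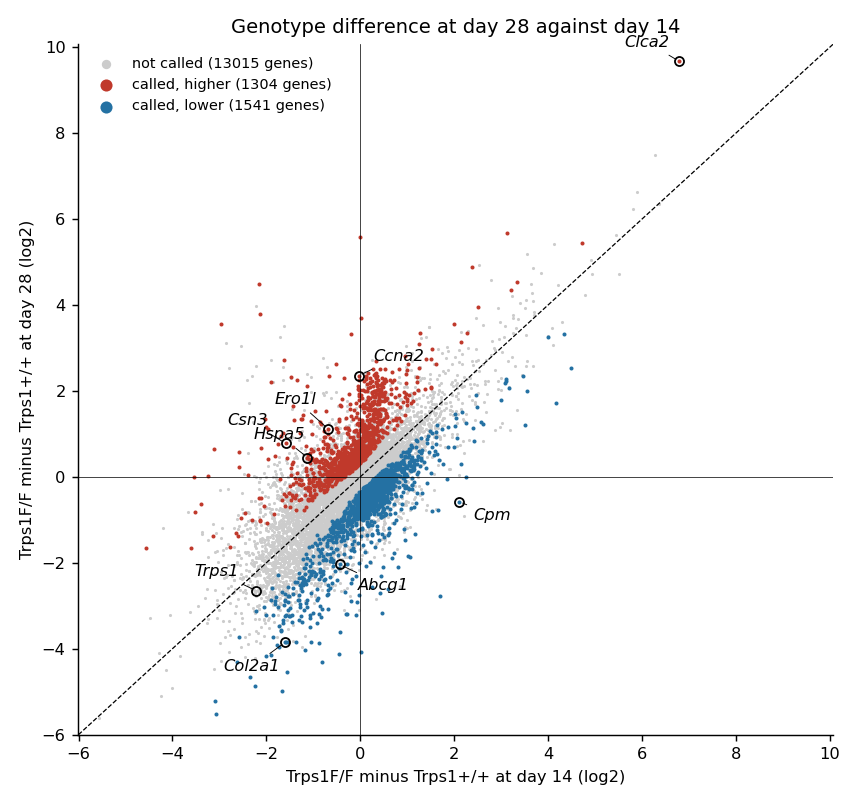
Each point is 1 of 15860 genes, with the Trps1F/F minus Trps1+/+ difference at day 14 on the horizontal axis and at day 28 on the vertical axis (log2 units), and the dashed line marks equal differences on both days. The 1304 genes called higher (red) lie above the line and the 1541 called lower (blue) below it, with Clca2 at 6.79 and 9.68 and Cpm at 2.11 and -0.58.

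Genes of G2 phase and mitosis formed the most uniform group. These genes run chromosome condensation, the spindle and cytokinesis, and their messages are made in dividing cells. All 32 listed genes were tested and all 32 were called higher, against 8.22% of all tested genes. Their interactions ran from 1.19 (Aurka, a spindle pole kinase) to 2.39 (Ccna2). The median was 1.87, against -0.01 over all genes. The median genotype difference of the list was 0.31 at day 14 and 2.16 at day 28. In all 32 genes both Trps1F/F libraries of day 28 were above each of the other 6 libraries. This order held in 684 of the 1304 genes called higher, which were chosen on the same values. Its share over all tested genes was not counted, so the order is a description only. The median time difference of the list was 1.74 in Trps1F/F and -0.16 in Trps1+/+.

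Ccna2 encodes cyclin A2, which drives S phase and entry into mitosis, and lies at chromosome 3, 36564865 to 36572150 (GRCm38). It stood at 8.97 and 9.01 in Trps1+/+ and 9.0 and 8.90 in Trps1F/F at day 14, and at 8.80 and 8.19 in Trps1+/+ and 10.92 and 10.79 in Trps1F/F at day 28. The genotypes overlapped at day 14 and were far apart at day 28, where the Trps1F/F libraries were 5.12-fold higher. Its interaction was 2.39 (SE 0.235, n = 2 per group, adjusted p = 0.000154). Mki67, the proliferation marker Ki-67, had an interaction of 1.95 (SE 0.277, adjusted p = 0.000968). The second Trps1+/+ library of day 28 was below the first in these genes, at 9.48 against 10.09 for Mki67, and all 32 calls were also made without either of them.

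The remaining mitotic genes among the largest interactions were motor proteins and kinetochore parts. Kif23, a kinesin of the central spindle, had an interaction of 2.36 and Kif11, the kinesin that pushes spindle poles apart, 2.21. Nuf2, Cenpf and Cenpe, which sit at the kinetochore, had 2.24, 2.15 and 2.10. Top2a, the topoisomerase that untangles replicated chromosomes, had 2.07. Outside the list, the chromokinesin Kif4 (2.26), Shcbp1 (2.19) and Prr11 (2.10) were among the 15 largest as well. The kinase genes Cdk1 (1.61) and Plk1 (1.55) and the cyclin genes Ccnb1 (1.90) and Ccnb2 (1.80), whose products start mitosis, were also called higher.

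Genes of S phase moved less and less evenly. Of 35 tested members, which copy DNA or supply nucleotides, 22 were called higher and 0 lower, with a median of 0.81. That called share was 62.9%, against 17.9% of all tested genes. The other 13 were positive too. Rrm2, the regulated subunit of ribonucleotide reductase, stood at 8.65 and 8.89 in Trps1+/+ and 9.17 and 9.22 in Trps1F/F at day 14, and at 8.82 and 8.48 in Trps1+/+ and 10.74 and 10.54 in Trps1F/F at day 28. Trps1F/F was higher on both days, by 1.34-fold and then by 3.97-fold. Its interaction was 1.57 (SE 0.201, adjusted p = 0.000596). Tk1 (1.17), an enzyme of thymidylate supply, and the helicase subunits Mcm6 (1.06) and Mcm3 (0.84) were called higher as well, as was Rrm1, the partner of Rrm2 (0.84). The count of S phase calls was 13 without the Trps1F/F day 14 replicate 1 and 14 without replicate 2. Ccnd2, a D cyclin of the G1 phase, had an interaction of 0.98 (SE 0.151, adjusted p = 0.0016). The 15 D cyclin and CDK inhibitor genes as a list held only 2 calls higher and 0 lower (13.3% called).

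**Figure D2:**
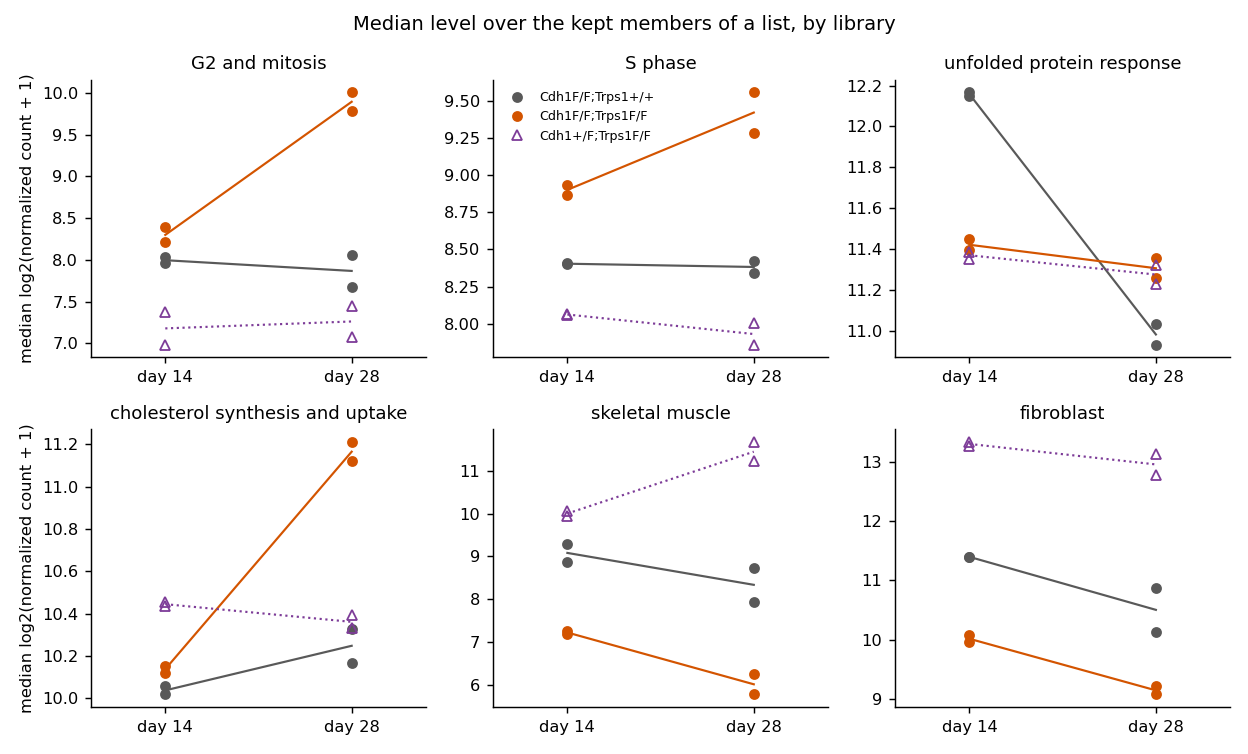
Median level over the tested members of 6 gene lists, as log2(normalized count + 1), with 1 symbol per library and lines joining group means at day 14 and day 28 for 3 genotypes. The G2 and mitosis median stands at 8.21 and 8.39 at day 14 and 10.01 and 9.78 at day 28 in Cdh1F/F;Trps1F/F, and the unfolded protein response median at 12.15 and 12.17 and then 10.93 and 11.03 in Cdh1F/F;Trps1+/+.

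The promoter of Top2a is shown because the genes of this list had moved together. The element searched was TTTGAA on either strand, the core of the cell cycle genes homology region (CHR), chosen after the values were seen. The 250 bases before the gene start in RefSeq (GRCm38.p6) were searched, and only genes with a RefSeq promoter were counted. It occurred in 10 of 26 mitotic list genes (38.5%), in 3 of 28 S phase genes (10.7%) and in 1479 of 11423 tested genes (12.9%). The sequence below runs 5′ to 3′ along chr11:99024190-99024439, minus strand, and capitals mark the matches.
Top2a: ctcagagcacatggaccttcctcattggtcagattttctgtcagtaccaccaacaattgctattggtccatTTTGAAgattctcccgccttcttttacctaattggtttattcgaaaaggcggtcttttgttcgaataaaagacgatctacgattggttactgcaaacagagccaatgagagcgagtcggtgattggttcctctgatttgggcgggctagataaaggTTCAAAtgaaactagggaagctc
Such a match is a description of the letters and not a site shown to be bound.

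The genes of the unfolded protein response changed by another route. They encode chaperones and enzymes of the endoplasmic reticulum (ER), made when secretory proteins load that compartment. Of 28 tested members 21 were called higher and 0 lower (75% called, against 17.9% of all tested genes), with a median interaction of 0.81. The difference between genotypes reversed: its median was -0.67 at day 14 and 0.27 at day 28, and 14 of the 28 were called at both days with opposite signs. Of all 15860 tested genes, 249 were called that way. In 24 of the 28 both Trps1+/+ libraries of day 14 were above each of the other 6 libraries. That order held in 380 of the 1304 genes called higher, which were chosen on the same values, and its share over all tested genes was not counted. It was not particular to this list. The order also held in 26 of 34 interferon-stimulated and 18 of 24 skeletal muscle genes, but in 0 of 32 G2 and mitosis genes. The median time difference was -1.06 in Trps1+/+ and -0.27 in Trps1F/F, so the larger movement was in the organoids with Trps1.

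Hspa5 encodes BiP, the main ER chaperone and the sensor-binding protein of the response, at chromosome 2, 34771970 to 34777547. It stood at 15.73 and 15.72 in Trps1+/+ and at 14.54 and 14.67 in Trps1F/F at day 14, and at 13.68 and 13.69 in Trps1+/+ and 14.05 and 14.23 in Trps1F/F at day 28. The Trps1+/+ libraries were above Trps1F/F at day 14 and below them at day 28, with no overlap on either day. Trps1F/F was 2.18-fold lower and then 1.37-fold higher, and the interaction was 1.57 (SE 0.135, adjusted p = 7.61e-05). Ero1l, the oxidase that drives disulphide bond formation in the ER, stood at 13.12 and 12.99 in Trps1+/+ and 12.25 and 12.51 in Trps1F/F at day 14, and at 11.05 and 10.85 in Trps1+/+ and 11.98 and 12.13 in Trps1F/F at day 28. Its order reversed in the same way, and its interaction was 1.79 (SE 0.140, adjusted p = 5.6e-05). Hsp90b1, the ER form of HSP90, had 1.70, and Pdia4, a disulphide isomerase, had 1.28.

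Other chaperones of the list followed with smaller values. Manf (1.32), Sdf2l1 (1.24), Pdia3 (1.17), Calr (1.14), Dnajb11 (1.06), Pdia6 (1.04) and Canx (1.02) were called higher. The transcription factors that carry the response did not move as a set. Atf6, which is cleaved to release a factor active on chaperone genes, had an interaction of 0.58 (SE 0.111, adjusted p = 0.00504). Xbp1 (-0.01, SE 0.103, adjusted p = 0.967) and Atf4 (-0.03, SE 0.103, adjusted p = 0.863) were not called, and Syvn1, a ubiquitin ligase of the ER, was not either (-0.06, SE 0.121, adjusted p = 0.776).

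Sequences of 4 members are shown because they hold the ER stress response element, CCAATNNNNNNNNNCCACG, searched on both strands and chosen after the values were seen. It occurred in the 250 bases before the RefSeq start of 9 of 24 unfolded protein response genes with a RefSeq promoter (37.5%). Of all 11423 tested genes with such a promoter, 19 held it (0.166%). Of called genes with such a promoter, it occurred in 7 of 981 called higher and in 0 of 1137 called lower. The 7 were Calr, Canx, Creld2, Dnajc3, Hsp90b1, Hspa5 and Pdia6. Derl3 and Syvn1 held the element and were not called. RefSeq starts differ from the GENCODE gene starts, so the sequences below stop where the first GENCODE exon begins. Capitals mark the element, and the sequences run 5′ to 3′ along chr10:86705510-86705694, minus strand (Hsp90b1), chr8:84846935-84847181, minus strand (Calr) and chr12:17266339-17266544, plus strand (Pdia6). In Hspa5 the element, at chr2:34772025-34772043 on the plus strand, lies before the RefSeq start but inside the first exon of a GENCODE transcript, so its letters alone are given.
Hspa5: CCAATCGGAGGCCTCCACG
Hsp90b1: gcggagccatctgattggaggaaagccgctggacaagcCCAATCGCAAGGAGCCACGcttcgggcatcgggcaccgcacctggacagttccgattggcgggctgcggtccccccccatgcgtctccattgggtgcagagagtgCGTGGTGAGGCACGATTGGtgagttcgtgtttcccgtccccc
Calr: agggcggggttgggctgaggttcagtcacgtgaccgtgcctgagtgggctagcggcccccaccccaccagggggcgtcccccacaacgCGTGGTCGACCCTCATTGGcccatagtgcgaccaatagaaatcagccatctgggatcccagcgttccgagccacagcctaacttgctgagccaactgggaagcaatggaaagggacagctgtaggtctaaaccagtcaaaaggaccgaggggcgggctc
Pdia6: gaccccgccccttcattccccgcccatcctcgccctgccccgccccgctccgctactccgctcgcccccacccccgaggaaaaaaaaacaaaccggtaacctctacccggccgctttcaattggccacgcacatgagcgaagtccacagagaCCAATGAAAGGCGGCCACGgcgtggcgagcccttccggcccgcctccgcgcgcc
Hsp90b1 holds 2 copies and the other 3 genes hold 1 each.

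Cholesterol genes split by function. Of 25 tested genes, 17 were called higher and 2 lower (76% called, against 17.9% of all tested genes), with a median of 0.85. The 2 lower ones, Abca1 and Abcg1, are the transporters that export cholesterol. The 17 serve the synthesis, uptake, transfer or regulation of sterols. Hmgcs1, which makes the precursor of mevalonate, stood at 10.98 and 10.83 in Trps1+/+ and 10.92 and 10.93 in Trps1F/F at day 14, and at 11.06 and 10.82 in Trps1+/+ and 12.16 and 12.24 in Trps1F/F at day 28. The genotypes overlapped at day 14, and at day 28 the Trps1F/F libraries were 2.39-fold higher. Its interaction was 1.23 (SE 0.126, adjusted p = 0.00019). Idi1 (1.63), Cyp51 (1.48) and Msmo1 (1.15), enzymes further down the pathway, had interactions of similar or larger size. The squalene epoxidase Sqle (0.85) and the regulator Insig1 (0.93) were called higher too. The letters ATCACCCCAC, a form of the sterol regulatory element chosen after the values were seen, were searched on both strands. They occurred in 0 of 17 list promoters of 250 bases and in 8 of 11423 tested genes with a promoter (0.07%). For the list genes this says only that the letters are not in this window.

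Abcg1 stood at 11.10 and 11.12 in Trps1+/+ and 10.74 and 10.61 in Trps1F/F at day 14, and at 11.38 and 11.71 in Trps1+/+ and 9.40 and 9.62 in Trps1F/F at day 28. Trps1F/F was lower on both days and the gap widened from 1.35-fold to 4.11-fold, giving an interaction of -1.60 (SE 0.154, adjusted p = 0.000145). Abca1 had an interaction of -1.14 (SE 0.117, adjusted p = 0.00019). Srebf1, whose products include the factor SREBP-1c of fatty acid synthesis and which was on the fatty acid list, had -1.22 (SE 0.133, adjusted p = 0.000248). The 20 fatty acid synthesis genes as a list held 2 calls higher and 3 lower (25% called, against 17.9% of all tested genes). Their median was -0.01, and 10 of the 20 were positive.

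**Figure D3:**
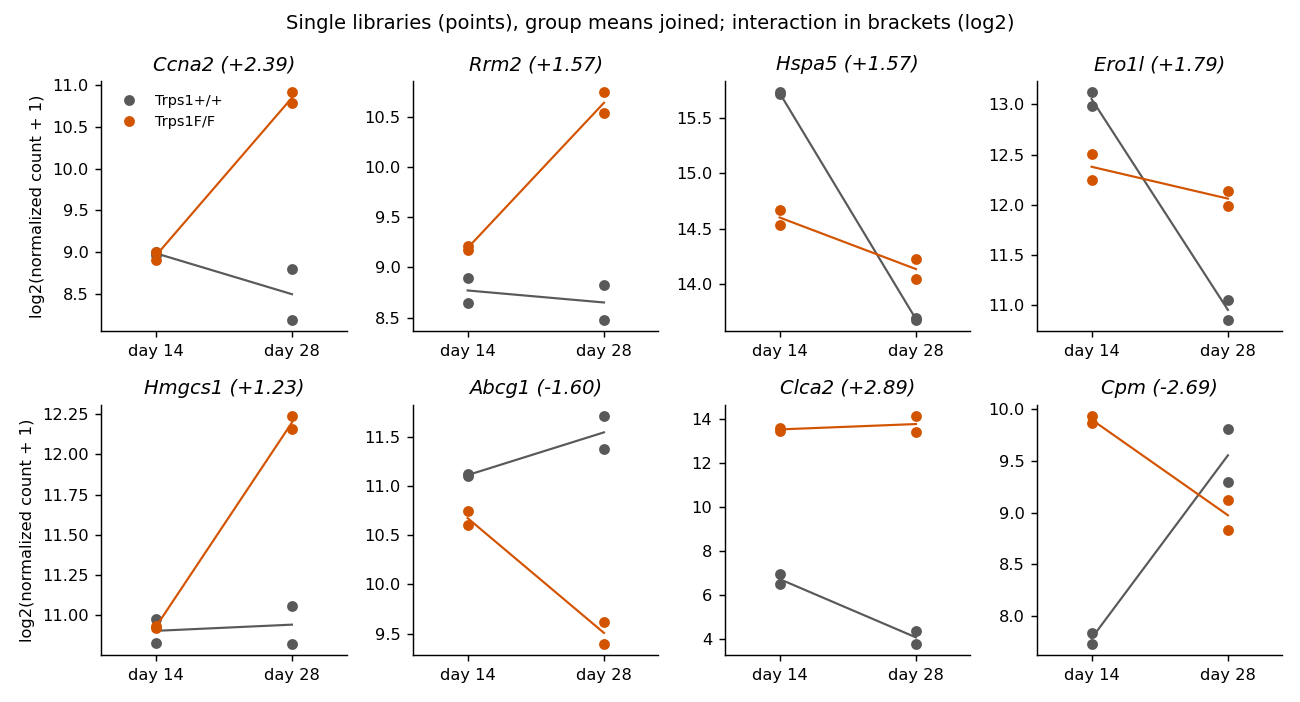
Levels of 8 genes as log2(normalized count + 1) on the vertical axis, at day 14 and day 28, with 1 point per library and lines joining the means of 2 libraries. Ccna2 and Hmgcs1 overlap at day 14 and separate at day 28, and Rrm2 is apart on both days with a wider gap at day 28. Hspa5, Ero1l and Cpm change order between days, and Clca2 in Trps1F/F stays above 13 while Trps1+/+ is below 7 on both days.

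The largest positive interaction under the naming rule given below belonged to Clca2, a calcium-activated chloride channel regulator, on chromosome 3 from 145070263 to 145099443. The rule asks that the highest group mean exceed the median gene (8.82), which Clca2 did in Trps1F/F only. It stood at 6.93 and 6.50 in Trps1+/+ and 13.57 and 13.44 in Trps1F/F at day 14, and at 3.79 and 4.35 in Trps1+/+ and 13.39 and 14.11 in Trps1F/F at day 28. The Trps1F/F means of the 2 days differed by 1.18-fold and the Trps1+/+ means by 6.26-fold, with every Trps1F/F library above every Trps1+/+ library. The genotypes differed by 111-fold and then by 820-fold, and the interaction was 2.89 (SE 0.306, adjusted p = 0.000224). The interaction thus rests on low Trps1+/+ counts: Clca1 and Clca2 together summed to 13.5 and 22.9 normalized counts there at day 28. Its neighbour Clca1 had an interaction of 1.23 and was not called (SE 0.500, adjusted p = 0.104), although it was called without the second Trps1+/+ library of day 28 (1.95, adjusted p = 0.00298).

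Sequences of the kind that TRPS1 binds were searched in promoters. The letters, on both strands, were GATA preceded by an adenine or a thymine and followed by an adenine or a guanine. Only genes with a RefSeq promoter were counted. The letters occurred in the 250 bases before the RefSeq start of 20.6% of 11423 such tested genes. The shares were 19.4% of 981 genes called higher and 16.5% of 1137 called lower, both below the share of all these genes. Sites outside these 250 bases were not searched.

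Milk genes were mixed. Of 19 tested milk and alveolar genes, 5 were called higher, 1 lower and 13 were not called. The called share was 31.6%, against 17.9% of all tested genes. The list had a median of 0.63, or 0.34 without the second Trps1+/+ library of day 14. The summed list did not follow this median. It made up 1.57% and 1.58% of normalized counts in Trps1+/+ and 0.684% and 0.667% in Trps1F/F at day 14. At day 28 it made up 1.60% and 1.28% in Trps1+/+ and 0.521% and 0.445% in Trps1F/F. The sum was thus lower in Trps1F/F on both days. Csn3, which encodes kappa-casein, stood at 12.60 and 12.46 in Trps1+/+ and 10.94 and 10.94 in Trps1F/F at day 14, and at 9.30 and 8.73 in Trps1+/+ and 9.79 and 9.80 in Trps1F/F at day 28. It was higher with Trps1 at day 14 and lower at day 28, with an interaction of 2.37 (SE 0.216, adjusted p = 0.000104). Csn1s1, an alpha-casein gene, had an interaction of 1.13 (SE 0.203, adjusted p = 0.00362), with Trps1F/F lower on both days. Ltf, which encodes lactoferrin, had 1.56 (SE 0.206, adjusted p = 0.000673), with Trps1F/F higher on both days. Xdh, an enzyme that coats milk fat globules, had 0.87.

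Among the other large positive values, Ankrd1, a well-known target of the YAP and TAZ coactivators, stood at 8.94 and 8.95 in Trps1+/+ and 10.02 and 10.41 in Trps1F/F at day 14, and at 7.34 and 7.79 in Trps1+/+ and 10.84 and 11.03 in Trps1F/F at day 28. The gap grew from 2.41-fold to 10.3-fold, and the interaction was 2.09 (SE 0.231, adjusted p = 0.000277). The 22 YAP and TAZ target genes as a list did not share this direction, with 3 called higher, 6 lower (40.9% called) and a median of -0.27. Cyp7b1, an oxysterol hydroxylase, had an interaction of 2.12 (SE 0.206, adjusted p = 0.000154), and its difference reversed from Trps1+/+ higher to Trps1F/F higher. Vim, the intermediate filament gene of mesenchymal and basal cells, had 1.47 (SE 0.157, adjusted p = 0.000224). Acta2, the smooth muscle actin of myoepithelial cells, had -0.90 (SE 0.126, adjusted p = 0.000852). The 22 basal and myoepithelial genes held 2 calls higher and 3 lower (22.7% called, against 17.9% of all tested genes).

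The largest negative interaction under the same rule was that of Cpm, a membrane carboxypeptidase gene on chromosome 10 from 117629500 to 117687352. It stood at 7.74 and 7.84 in Trps1+/+ and 9.93 and 9.86 in Trps1F/F at day 14, and at 9.81 and 9.29 in Trps1+/+ and 9.12 and 8.83 in Trps1F/F at day 28. Trps1F/F was 4.32-fold higher at day 14 and 1.49-fold lower at day 28, with no overlap on either day. The interaction was -2.69 (SE 0.234, adjusted p = 7.67e-05). Cdsn, which encodes the adhesion protein corneodesmosin of cornified epithelium, reversed as well, from 2.26-fold higher to 2.5-fold lower, with an interaction of -2.50 (SE 0.333, adjusted p = 0.000682). Tnfrsf11b, the decoy receptor osteoprotegerin, had an interaction of -1.60 (SE 0.172, adjusted p = 0.000224).

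Several of the large negative values were secreted or matrix proteins whose Trps1+/+ level was higher at day 28 than at day 14. Col2a1, the collagen of cartilage, stood at 6.52 and 6.17 in Trps1+/+ and 5.0 and 4.48 in Trps1F/F at day 14, and at 10.08 and 9.62 in Trps1+/+ and 6.27 and 5.72 in Trps1F/F at day 28. Both genotypes were higher at day 28, Trps1+/+ by 11.4-fold and Trps1F/F by 2.39-fold, and the interaction was -2.25 (SE 0.391, adjusted p = 0.00301). Wisp2 (-2.05), the calcium-binding matrix gene Smoc1 (-1.76) and the latent TGF-beta binding protein gene Ltbp2 (-1.66) were called lower. Rnase1, a secreted ribonuclease (-1.97), Fam20a, a regulator of the secretory pathway kinase (-1.69), Ephb6, an ephrin receptor (-1.60), and Atp13a5, a transport ATPase (-1.59), completed the robust part of the 15 lowest. Cilp (-2.32) and Dpep1 (-1.67) were also among the 15 lowest, and Car6 (2.65) among the 15 highest. Their adjusted p-values were 0.0255, 0.0448 and 0.0311, and none of these 3 calls held in every alternative. Cilp was not called without either Trps1+/+ or either Trps1F/F library of day 14 or without the second Trps1+/+ library of day 28, with values from -1.69 to -2.47, nor with 4 groups only, no filter, no variance trend or voom. Car6 was not called without any 1 of these 5 or without the Trps1F/F day 28 replicate 2, with values from 2.01 to 2.98, nor with no filter or no variance trend. Dpep1 was not called without any 1 of the same 5 or without the Trps1F/F day 28 replicate 1, with values from -0.89 to -1.77, nor with 4 groups only, a pseudocount of 5, no filter, quantile normalization, no variance trend or voom.

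Genes of the basement membrane, the sheet on which mammary cells rest, split in both directions. Of 25 tested, 6 were called higher and 9 lower (60% called, against 17.9% of all tested genes). Their median was -0.42, or -0.24 without the second Trps1+/+ library of day 28. Lama4, a laminin alpha chain, stood at 14.12 and 13.97 in Trps1+/+ and 12.56 and 12.58 in Trps1F/F at day 14, and at 10.54 and 10.72 in Trps1+/+ and 10.82 and 10.83 in Trps1F/F at day 28. Both genotypes were lower at day 28, by 10.7-fold and 3.35-fold, and the interaction was 1.67 (SE 0.124, adjusted p = 5.6e-05). The laminin chain genes Lamb1 (1.04), Lamc1 (0.71) and Lama1 (1.30) and the linker Nid1 (1.79) were called higher. The adhesion complex genes Fras1 (-1.90) and Frem1 (-2.21) and the laminin chain gene Lamc3 (-2.25) were called lower, the last 2 not with voom on recovered reads (adjusted p = 0.078 and 0.0549). The count of members called lower was 5 without the first Trps1+/+ library of day 14 and 4 without the Trps1F/F day 14 replicate 1.

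Genes of the TGF-beta and BMP pathways leaned negative. TGF-beta family ligands signal through receptor kinases to SMAD factors and are stored in the matrix by latent TGF-beta binding proteins. Of 25 TGF-beta genes, 4 were called higher and 10 lower (56% called, against 17.9% of all tested genes), with a median of -0.37. Ltbp2 stood at 10.46 and 10.62 in Trps1+/+ and 10.20 and 9.96 in Trps1F/F at day 14, and at 12.13 and 12.09 in Trps1+/+ and 10.21 and 9.78 in Trps1F/F at day 28. The Trps1+/+ libraries were higher at day 28 than at day 14, the Trps1F/F libraries of the 2 days overlapped, and the interaction was -1.66 (SE 0.190, adjusted p = 0.000343). Ltbp3 had -1.23 (SE 0.169, adjusted p = 0.000798). The ligand genes moved apart: Inhba, the activin A subunit, had 1.30 and Tgfb2 had 1.12, whereas Tgfb1 had -0.65 and was not called without the Trps1F/F day 14 replicate 1 (-0.60, adjusted p = 0.0545). The count of TGF-beta genes called lower was 6 without the first Trps1+/+ library of day 14 and 4 without the Trps1F/F day 14 replicate 1.

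Of 23 BMP and Id genes, 0 were called higher and 6 lower (26.1% called, against 17.9% of all tested genes). The median of the list was -0.46, and it was -0.81 without the first and -0.17 without the second Trps1+/+ library of day 28. Id3, a target of BMP signalling that blocks differentiation factors, stood at 9.26 and 9.44 in Trps1+/+ and 9.10 and 9.17 in Trps1F/F at day 14, and at 10.81 and 10.95 in Trps1+/+ and 9.72 and 9.35 in Trps1F/F at day 28. Both genotypes were higher at day 28 and Trps1+/+ the more so, with an interaction of -1.13 (SE 0.191, adjusted p = 0.00267). The BMP antagonist gene Nog had -1.91 (adjusted p = 0.00823) and the SMAD gene Smad9 had -2.14 (adjusted p = 0.01). Neither was called without the first Trps1+/+ library of day 14, with adjusted p-values of 0.0501 and 0.0572. The list's count was 1 without that library and 3 without the Trps1F/F day 14 replicate 1.

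Genes of the luminal epithelial state leaned negative by smaller amounts, and most were not called. Of 30 tested luminal epithelial genes, 0 were called higher and 9 lower, with a median of -0.16. Of 20 tight junction genes 0 were called higher and 5 lower, with a median of -0.24. The called shares were 30% and 25%, against 17.9% of all tested genes. The other 21 luminal and 15 tight junction genes were not called. Positive interactions were found in 7 luminal genes (up to 0.58) and 4 tight junction genes (up to 1.86). The lists share members. Cldn4, a claudin of tight junctions, stood at 9.76 and 9.94 in Trps1+/+ and 12.94 and 12.93 in Trps1F/F at day 14, and at 10.54 and 10.71 in Trps1+/+ and 12.82 and 12.79 in Trps1F/F at day 28. Trps1F/F was higher on both days by a narrowing gap, and the interaction was -0.91 (SE 0.146, adjusted p = 0.00201). The claudin gene Cldn3 (-0.90), Ovol1, a factor that maintains the epithelial state (-0.85), the membrane protease gene Prss8 (-0.75) and the junction scaffold gene Cgn (-0.86) were called lower. Erbb2, the receptor HER2, from another list, had -0.82 (SE 0.109, adjusted p = 0.000682). The luminal median was -0.10 without the first Trps1+/+ library of day 14, -0.099 without the Trps1F/F day 14 replicate 1 and -0.27 without the second Trps1+/+ library of day 28. The luminal count was 4 without the Trps1F/F day 14 replicate 1, and the tight junction count was 3 without it, without the first Trps1+/+ library of day 14 or without the Trps1F/F day 28 replicate 2.

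Among regulators, 20 retinoic acid genes held 1 call higher and 5 lower (30% called, against 17.9% of all tested genes). Their median was -0.56, or -0.23 without the second Trps1+/+ library of day 28. It was -0.35 with a minimum of 50 in place of 10 in the filter on low values. The receptors Rara (-0.75) and Rxra (-0.82) and the degrading enzyme Cyp26b1 (-1.51) were called lower, and the synthesizing enzyme Aldh1a3 was called higher (0.78). Of 14 BCL2 family genes 0 were called higher and 4 lower (28.6% called), and all 4 encode BH3-only proteins, which promote cell death. Bcl2l11, which encodes BIM, had -0.58 (adjusted p = 0.00487) and Bbc3, which encodes PUMA, had -1.10 (adjusted p = 0.00793). Bbc3 was not called without the Trps1F/F day 14 replicate 1 (-0.98, adjusted p = 0.0507). The BCL2 count was 2 with no variance trend, 2 without the first Trps1+/+ library of day 14, 1 without the Trps1F/F day 14 replicate 1 and 2 without the Trps1F/F day 28 replicate 2. The 35 genes of a general list of deacetylases and corepressor complex subunits held 3 calls higher and 5 lower (22.9% called) with a median of -0.12. Hdac11 (-1.02) was among those called lower. The 31 oxidative phosphorylation genes held 7 calls higher and 0 lower (22.6% called) with a median of 0.19.

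**Figure D4:**
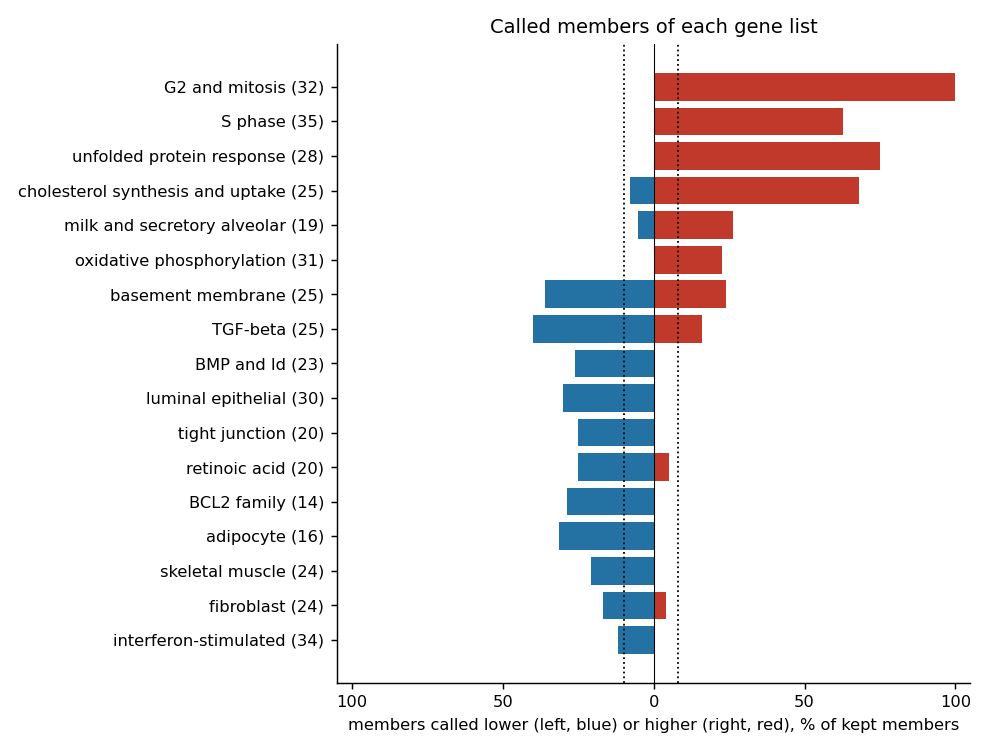
Share of the tested members of 17 gene lists called higher (red, to the right) or lower (blue, to the left) in the interaction, in percent, with the number of tested members in brackets. Dotted lines mark the share over all tested genes, 8.22% higher and 9.72% lower, and the G2 and mitosis list reaches 32 of 32 members called higher.

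Markers of other cell types moved with the groups as well. Summed fibroblast markers made up 0.849% and 0.949% of the normalized counts in Trps1+/+ and 0.344% and 0.339% in Trps1F/F at day 14, and 0.368% and 0.527% and then 0.181% and 0.157% at day 28. Summed skeletal muscle markers made up 0.0851% and 0.109% in Trps1+/+ and 0.0268% and 0.0288% in Trps1F/F at day 14, and 0.0474% and 0.0732% and then 0.0119% and 0.00772% at day 28. Summed adipocyte markers made up 0.125% and 0.131% in Trps1+/+ and 0.0445% and 0.0481% in Trps1F/F at day 14, and 0.0557% and 0.0846% and then 0.0268% and 0.0303% at day 28. All 3 sums were lower in Trps1F/F on both days and lower at day 28 in both genotypes. The sums do not describe each member. In Trps1+/+ the median level of the adipocyte list was higher in each day 28 library than in each day 14 library. At day 14, 11 of the 16 adipocyte genes were lower in Trps1F/F. No fibroblast or muscle marker was at 0 in any of the 8 libraries, while up to 5 of the 16 adipocyte markers were. Macrophage markers summed to 0.0334% to 0.0796%, with at most 1 of 20 listed markers at 0 in a library. In bulk RNA, fewer cells of a type and less RNA per cell cannot be told apart, and the part of these markers in the interactions above was not tested.

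In the interaction itself most members of these lists were not called, but the called share was 31.2% for adipocyte and 20.8% for both muscle and fibroblast genes, against 17.9% of all tested genes. Of 24 fibroblast genes 1 was called higher and 4 lower, with a median of -0.35, and Fn1, the fibronectin gene, had -0.87 (SE 0.179, adjusted p = 0.00723). Of 24 skeletal muscle genes 0 were called higher and 5 lower, with a median of -0.58. Of 16 adipocyte genes 0 were called higher and 5 lower, with a median of -0.54. Plin1, a lipid droplet coat gene, stood at 4.32 and 5.26 in Trps1+/+ and 4.77 and 4.76 in Trps1F/F at day 14, and at 6.18 and 6.89 in Trps1+/+ and 3.95 and 3.63 in Trps1F/F at day 28. The genotypes overlapped at day 14 and were apart at day 28, with an interaction of -2.73 (SE 0.479, adjusted p = 0.00312). Of 19 macrophage and myeloid genes 2 were called higher and 0 lower, of 19 endothelial genes 1 and 0, and of 34 interferon-stimulated genes 0 and 4. Those called shares were 10.5%, 5.26% and 11.8%. The macrophage count was 1 with 4 groups only, no filter, no variance trend or voom, and without the Trps1F/F day 14 replicate 1, the Trps1F/F day 28 replicate 2 or any 1 of the 4 Trps1+/+ libraries. The interferon count was 1 with no variance trend and without the first Trps1+/+ library or either Trps1F/F library of day 14, 2 without the Trps1F/F day 28 replicate 2 and 10 without replicate 1.

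The counts of the muscle, fibroblast and adipocyte lists, and the medians of the muscle and fibroblast lists, turned on single libraries. The muscle median was -0.89 without the first and -0.33 without the second Trps1+/+ library of day 28, -0.38 without the Trps1F/F day 28 replicate 2 and -0.36 with quantile normalization. The fibroblast median was -0.72 without the first and 0.074 without the second Trps1+/+ library of day 28, -0.22 without the first Trps1+/+ library of day 14 and -0.19 without the Trps1F/F day 28 replicate 1. Without the first Trps1+/+ library of day 28 the counts called lower were 13 muscle, 10 fibroblast and 8 adipocyte genes. Without the second one they were 1 muscle and 1 fibroblast gene. Without the Trps1F/F day 28 replicate 1, 11 muscle genes were called lower, and without replicate 2 there were 2. Leaving out the first Trps1+/+ library of day 14 gave 0 muscle genes and 1 fibroblast gene, leaving out the Trps1F/F day 14 replicate 1 gave 1 and 2, and leaving out replicate 2 gave 2 and 1. The counts of the mitotic (32), unfolded protein response (17 to 21) and cholesterol lists (15 to 18) stayed within these ranges whichever of the 8 libraries was left out.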

How the data were processed

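RNA from organoids was made into libraries with the Illumina TruSeq kit, per the labels' protocols, and the reads were processed with TopHat, HTSeq and GRCm38, per the submitters' processing notes, which give no versions. The deposited organoid table holds the authors' log2 values of normalized count + 1. Their steps gave whole reads for 100% of values (tolerance 0.01) in every library, which gave the depth and a limma-voom alternative. Rows kept had a normalized count + 1 of at least 10 in 2 of the 12 organoid libraries. The row with no symbol (at most 1.31e-05% of reads) and 14 symbols turned into dates were left out. limma 3.58.1 in R 4.3.3 was fitted to all 12 libraries in 6 groups with a variance trend and Benjamini-Hochberg adjustment over all kept genes, and was tested on simulated data. The spread was thus shared with the Cdh1+/F;Trps1F/F libraries. The authors' deposited comparison tables gave log2 fold changes, p-values and base means, and only the log2 fold changes were used. Replicates differed by more than sampling noise in every group (chi-square per degree of freedom 7.97 to 18.9).

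The members and lists were chosen with earlier results of these data known. Named genes are Trps1, Cdh1, the 15 highest and 15 lowest called values whose library differences do not overlap and whose highest group mean exceeds the median gene, 6 called genes with opposite differences on the 2 days, and list members called or with the smallest p. Gata3, Xbp1, Atf4, Syvn1, Derl3, Clca1 and the genes around the element searches were added after their values were seen. Coordinates are from GENCODE M21 (GRCm38), which matched 95.1% of symbols. Promoters were read from RefSeq without the 50 bases after the start, and bases from the first GENCODE exon on were cut from those printed. Alternatives were 4 groups only, a pseudocount of 5, no filter, a minimum of 50, quantile normalization, a common median, no variance trend, voom on recovered reads and leaving out each library. Some genes that the naming rule picks are not reported here.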

Additional observations from a re-analysis of the deposited data

Results flagged for a closer look

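In 249 genes the Trps1F/F minus Trps1+/+ difference passed at day 14 and again at day 28 with the opposite sign, and the interaction term passed as well. The 6 with the smallest interaction p were Pdia4 (1.28), Ero1l (1.79), Hsp90b1 (1.7), Hspa5 (1.57), Chl1 (1.62) and Cpm (-2.69), each of them picked out because its genotype difference was not the same on the 2 days by the test of that difference. Chl1, a neural cell adhesion gene, stood at 13.14 and 12.83 in Trps1+/+ and 11.86 and 11.88 in Trps1F/F at day 14, and at 11.40 and 11.51 in Trps1+/+ and 11.87 and 12.04 in Trps1F/F at day 28. Its Trps1F/F libraries were nearly level between days and its Trps1+/+ libraries were lower at day 28. In Cpm both genotypes moved, in opposite directions.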

How the results depend on the processing

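Of 1712 values of 107 named genes under 16 alternatives, 1671 kept direction and side of the threshold, 35 in 9 genes lost the call, 1 gained it and 5 changed sign. The 5 belonged to genes near 0 that were not called, whose values with 1 library left out ran from -0.051 to 0.035 (Xbp1), -0.066 to 0.0028 (Atf4) and -0.14 to 0.022 (Syvn1). The fibroblast median ran from -0.72 to 0.074, positive only without the second Trps1+/+ library of day 28. Of the named genes, 90 were called in every alternative.

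Genes called numbered 2520 with 4 groups only, 2208 with no filter, 2833 with voom and 1664 (781 higher, 883 lower) with no variance trend. The share called higher was 45.8%, and 40.7% with a common median. Leaving out a library gave 1047 to 3432 calls (517 to 1535 higher, 529 to 1897 lower). The lowest counts came without Trps1F/F day 14 replicate 1 (1047), the first Trps1+/+ library of day 14 (1080), Trps1F/F day 14 replicate 2 (1728), Trps1F/F day 28 replicate 2 (1828) and the second Trps1+/+ library of day 28 (1843). List counts ranged, over the libraries left out, from 13 to 23 (S phase higher), and for lower calls from 4 to 11 (luminal), 3 to 6 (tight junction), 4 to 11 (basement membrane), 4 to 12 (TGF-beta), 1 to 8 (BMP and Id), 4 to 8 (adipocyte), 0 to 13 (muscle) and 1 to 10 (fibroblast). With no variance trend, lower calls were 3 tight junction, 5 basement membrane, 6 TGF-beta, 0 muscle and 1 fibroblast. The fibroblast count was 2 with 4 groups, a pseudocount of 5, quantile normalization or voom, and the muscle count 2 with no filter and 1 with voom. The cause of these differences was not tested.

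No paired analysis was possible because both columns of each Trps1+/+ group carry the same replicate number. With 2 libraries a group, small differences were not detectable: the median SE of an interaction was 0.19.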

Other observations

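The 4 libraries of Cdh1+/F;Trps1F/F organoids, which enter the fit but not the interaction, give a time course with Trps1 floxed and 1 Cdh1 allele intact. Their median day 28 minus day 14 difference was 0.23 over the 32 G2 and mitosis genes, against 1.74 in Cdh1F/F;Trps1F/F and -0.16 in Cdh1F/F;Trps1+/+. Over the 25 cholesterol genes it was -0.18, against 1.01 and 0.14. Over the 28 unfolded protein response genes it was -0.09, against -0.27 and -1.06. The difference between these time courses was not tested. The Cdh1+/F;Trps1F/F libraries also held summed fibroblast markers of 2.36% to 4.38% of normalized counts, above each of the other 8 organoid libraries.

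Over the 1304 genes called higher, the median time difference in Cdh1+/F;Trps1F/F was 0.20, and over the 1541 called lower it was -0.35. The median over all tested genes is not given for this time course, so these values have no background to be read against. The Cdh1+/F;Trps1F/F libraries did not enter the interaction difference, but they entered the filter on low values and the shared spread behind the calls. The values are thus not separate support for the calls.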
